A study of Mus musculus with 6 samples.

Results

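The semaphorin, plexin, neuropilin, ephrin and Eph genes were followed in YUMM3.3 melanoma tumors of mice treated with vehicle or with rigosertib (RGS). Members were the protein-coding genes of the count table named as semaphorins of classes 3 to 7, plexins A to D, neuropilins 1 and 2, ephrins A and B, or Eph receptors A and B. This name rule found 53 of the 40166 genes in the table, and the rule reads gene names only. YUMM3.3, a line of mouse melanoma cells with mutant BRAF, was injected under the skin of the lower back of immunocompetent C57BL/6 mice that were 8 to 10 weeks old. RGS, a small molecule that interferes with the binding of RAS to its effector proteins, was given by oral gavage at 300 mg/kg on 5 days a week, and the vehicle mice received water in the same way. All 6 tumors were collected after 17 days of treatment, 3 from vehicle mice (vehicle 7, 8 and 9, as the samples are numbered) and 3 from RGS mice (RGS 10, 11 and 12). Every tumor came from the same cell line, and the sources used here do not tie a sex to the sequenced mice. RNA was extracted from collected tumors, but several defining markers of immune cells were at 0 counts in all of them, so how much host RNA the libraries held cannot be told from these counts. In such bulk samples, fewer cells of a type and less RNA per cell cannot be told apart.

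Semaphorins are secreted or membrane-bound ligands that steer growing axons, blood vessels and migrating cells. Their main receptors are the plexins, and most secreted class 3 semaphorins bind through a coreceptor, neuropilin 1 or 2. Eph receptors are the largest family of receptor tyrosine kinases, and their ligands, the ephrins, stay attached to the cell surface, the A type by a lipid anchor and the B type by a membrane-spanning segment. Contact between an ephrin cell and an Eph cell can send a signal into both. Both systems act on the actin cytoskeleton and on adhesion through small GTPases, and both are known in melanoma for their part in invasion, vessel growth and dealings with nerves.

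The libraries held between 22793087 and 32555494 counts in the vehicle tumors and between 13837932 and 21617368 in the RGS tumors. Each vehicle library was deeper than each RGS library, and the effects of depth and of treatment cannot be told apart. Counts of mitochondrial genes made up 2.13% to 3.2% of the vehicle libraries and 5.60% to 8.22% of the RGS libraries. Most of the listed markers of immune cells were scarce in these tumors. Of 12 myeloid markers 3 had enough counts to be tested and 4, among them the leukocyte marker *Ptprc* and the macrophage marker *Adgre1*, had 0 counts in every tumor. The 12 summed to 218 to 290 CPM with vehicle and 941 to 1043 CPM with RGS, mostly from *Laptm5*, a lysosomal membrane protein gene (176.5 and 901 CPM on average), which rose together with *Cd14*. The other tested marker, *Cd68*, was not scarce and had no call (62.5 and 74.1 CPM on average, log2 fold change 0.24). Of 10 T and NK cell markers 7 were at 0 in every tumor, and the 10 summed to at most 1.42 CPM, with *Trac*, at 0 counts in every vehicle tumor, the 1 that passed the filter, through the RGS tumors alone. The melanocyte genes *Tyr*, *Dct*, *Mlana* and *Slc45a2* were also at 0 throughout in RNA labelled as melanoma, and the 8 melanocyte markers summed to 4.94 to 7.68 CPM with vehicle and 4.53 to 10.5 CPM with RGS, 0 of 2 tested being called. Markers of dividing cells summed to 564 to 629 CPM with vehicle and 225 to 258 CPM with RGS, and 6 of 8 fell.

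More of these guidance genes rose than fell. Of 53 members, 43 reached a median of 5 counts in vehicle or in RGS tumors and were tested, 15 were higher with RGS and 5 were lower at an adjusted p under 0.05 (edgeR quasi-likelihood test, adjusted by Benjamini-Hochberg over 15355 genes). That is 34.9% higher and 11.6% lower, beside 16.3% higher and 16.5% lower among all tested genes. The median log2 fold change (RGS minus vehicle) was 0.54 over the tested members and -0.05 over all tested genes, and 31 of the 43 were above 0. The RGS and vehicle tumors did not overlap in 25 of 43 members, against 45.8% of all tested genes, and those 25 included the 20 called ones. With library size alone as the scale, the median over all genes moved to -0.19, 12 members were higher and 5 lower. Of all tested genes 12.2% were then higher and 20.5% lower. Leaving out 1 tumor at a time gave between 11 and 19 members higher (11 without vehicle 8 or vehicle 9, 12 without RGS 10 or RGS 11) and between 3 and 5 lower (3 without vehicle 7, vehicle 8, RGS 10 or RGS 12). The called class 4 to 7 semaphorins, ephrins and neuropilin were all higher, while the called class 3 semaphorins, plexins and EphA receptors went both ways. Of the 5 lower members 3 were class 3 semaphorins, and the other two, *Plxnc1* and *Epha4*, passed the filter on low counts through the vehicle tumors only.

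**Figure D1:**
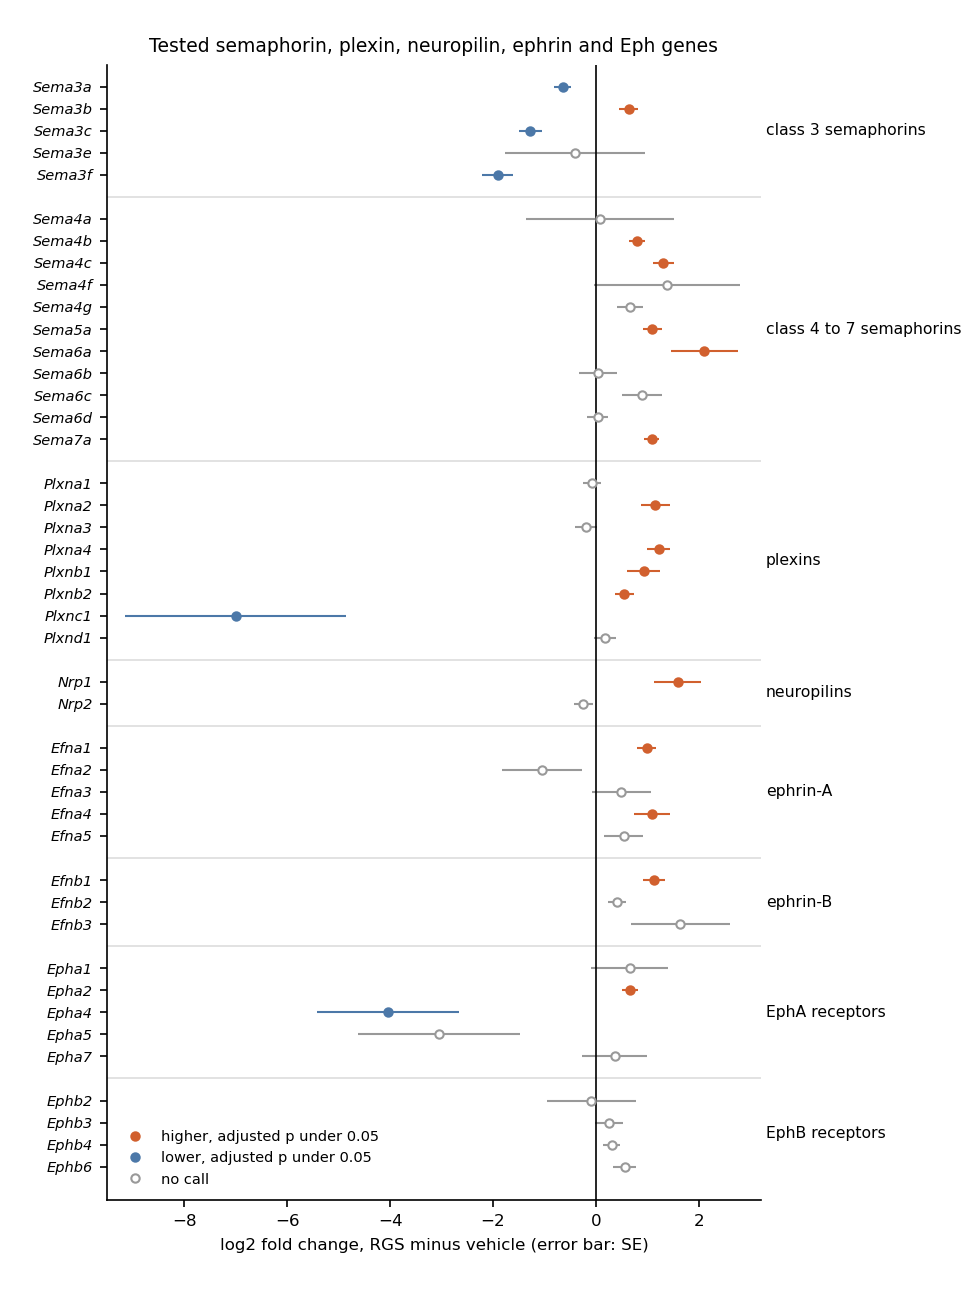
Log2 fold change (RGS minus vehicle) of the 43 tested members, grouped by role, with its standard error as a horizontal bar. Filled points passed the adjusted p threshold (15 higher, 5 lower) and open points did not. *Plxnc1* and *Epha4*, the lowest points, have the widest bars among the called members.

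Another 10 members did not pass the filter on low counts. *Epha6*, *Ephb1*, *Plxnb3*, *Sema3g* and *Sema5b* had 0 counts in all 6 tumors, and *Epha3*, *Epha8*, *Epha10*, *Sema3d* and *Sema4d* had too few counts to be tested. A limit of 3 counts per library corresponded to between 0.0856 and 0.226 CPM. Such limits, like the counts, cover counting error at most and not the spread between tumors. No molecular identifiers are described for the reads in the sources used here. At this depth *Sema4d*, the ligand of plexin B1, was above that limit in 2 of the 6 tumors.

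Promoter sequences are shown for a semaphorin, a plexin, an ephrin and an Eph receptor, to set the start regions of genes that moved in the same and in opposite directions side by side. RefSeq (GRCm38.p6) held a promoter for 47 of the 53 members and for 16 of the 20 called ones. For 4 of those 16 the gene start in GENCODE M21 was the same base, and their 250 bases before the start are printed 5′ to 3′, with matches to a GC box (GGGCGG) or a CCAAT box (CCAAT) on either strand in capitals.
Sema7a: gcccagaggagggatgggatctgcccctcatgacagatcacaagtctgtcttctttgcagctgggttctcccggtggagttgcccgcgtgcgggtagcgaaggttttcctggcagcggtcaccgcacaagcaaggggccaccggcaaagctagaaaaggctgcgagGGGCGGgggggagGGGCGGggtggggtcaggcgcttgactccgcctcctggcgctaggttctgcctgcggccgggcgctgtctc
Plxnb2: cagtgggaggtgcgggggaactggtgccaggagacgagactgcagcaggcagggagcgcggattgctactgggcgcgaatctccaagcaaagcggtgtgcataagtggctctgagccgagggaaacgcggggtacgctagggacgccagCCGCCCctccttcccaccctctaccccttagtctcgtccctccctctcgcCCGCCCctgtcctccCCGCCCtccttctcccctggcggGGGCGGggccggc
Efna4: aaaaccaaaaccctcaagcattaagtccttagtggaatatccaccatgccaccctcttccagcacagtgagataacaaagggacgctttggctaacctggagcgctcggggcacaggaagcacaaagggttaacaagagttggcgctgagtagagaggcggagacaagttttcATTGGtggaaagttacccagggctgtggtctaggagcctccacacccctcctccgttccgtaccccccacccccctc
Epha4: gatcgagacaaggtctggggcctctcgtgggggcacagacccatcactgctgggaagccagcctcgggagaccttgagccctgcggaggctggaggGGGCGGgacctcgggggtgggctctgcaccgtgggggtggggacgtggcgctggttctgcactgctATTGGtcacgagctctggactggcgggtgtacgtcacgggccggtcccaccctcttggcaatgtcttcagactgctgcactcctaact
*Sema7a* (chr9:57939862-57940111, plus strand), *Plxnb2* (chr15:89180789-89181038, minus strand) and *Efna4* (chr3:89338029-89338278, minus strand) belong to genes that rose, and *Epha4* (chr1:77515089-77515338, minus strand) to one that fell. *Plxnb2* held 4 GC boxes and *Sema7a* held 2, while *Efna4* held a single CCAAT box and *Epha4* 1 of each. Neither an AP-1 element (TGANTCA), a cAMP response element (TGACGTCA) nor an E-box (CACGTG) was present in these 4 windows. Over all 61 member promoters, 46 held a GC box and 19 a CCAAT box, beside 32.7% and 33.9% of the 32851 mouse promoters in the table. By call, 10 of 12 higher genes, 3 of 4 lower genes and 19 of 21 uncalled genes with a promoter held a GC box.

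Class 3 semaphorins, the secreted ligands, split in direction. *Sema3f*, known for repelling vessels and tumor cells through neuropilin 2, was at 31.0, 17.7 and 17.3 CPM in vehicle 7, 8 and 9 and at 5.49, 7.01 and 5.14 CPM in RGS 10, 11 and 12. Each RGS tumor lay below each vehicle tumor, a mean 3.74-fold lower (log2 fold change -1.91 ± 0.30 SE, edgeR adjusted p = 9.32e-05). *Sema3c*, which guides cardiac and vascular cells, was at 29.1, 37.9 and 43.3 CPM with vehicle and 14.3, 13.6 and 17.7 CPM with RGS. Its groups did not overlap either, and it fell by 1.27 on the log2 scale (± 0.23 SE, edgeR adjusted p = 0.00026). *Sema3a*, a repellent that collapses axonal growth cones, had 190.2, 175 and 183 CPM with vehicle and 144, 112 and 95.4 CPM with RGS. It fell without overlap between the groups (log2 fold change -0.64 ± 0.17 SE, edgeR adjusted p = 0.00626). In contrast *Sema3b*, a ligand studied as a tumor suppressor, was 1.56-fold higher with RGS, at 58.1, 51.8 and 41.1 CPM with vehicle and 66.7, 90.0 and 79.2 CPM with RGS (log2 fold change 0.64 ± 0.18 SE, edgeR adjusted p = 0.0115). The call was lost without RGS 11 (log2 fold change 0.52, edgeR adjusted p = 0.0783), without vehicle 9 (0.52, adjusted p = 0.0566) and with library size as the scale (0.49, adjusted p = 0.0551). *Sema3e*, the plexin D1 ligand, stayed near 1 CPM or below in all tumors and had no call (log2 fold change -0.41 ± 1.37 SE).

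*Sema3b* and *Sema3f* lie on chromosome 9, 72.3 kb apart, with 4 tested genes between them of which 1 was higher and 0 were lower. Their ratio per gene length (*Sema3f* to *Sema3b*, in RPKM, reads per kilobase of gene length scaled to library size) was 0.490, 0.315 and 0.386 in the vehicle tumors and 0.0757, 0.0715 and 0.0596 in the RGS tumors. Such a ratio within a library does not depend on how libraries are scaled. Both genes were already apart between the groups in opposite directions, so their ratio had to separate and is a description only. As a share of the summed class 3 RPKM, *Sema3b* made up 27.6% to 33.8% with vehicle and 50.7% to 62.5% with RGS. *Sema3c* went from 11.3% to 19.4% with vehicle to 6.30% to 9.22% with RGS, and *Sema3f* from 10.6% to 16.6% to 3.67% to 4.47%. The share of *Sema3a* was 38.1% to 42.3% with vehicle and 25.5% to 37.8% with RGS, ranges that nearly met. The summed class 3 level was 33.2 ± 2.49 RPKM with vehicle and 28.2 ± 1.71 RPKM with RGS (SD, n = 3), without overlap between the tumors.

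**Figure D2:**
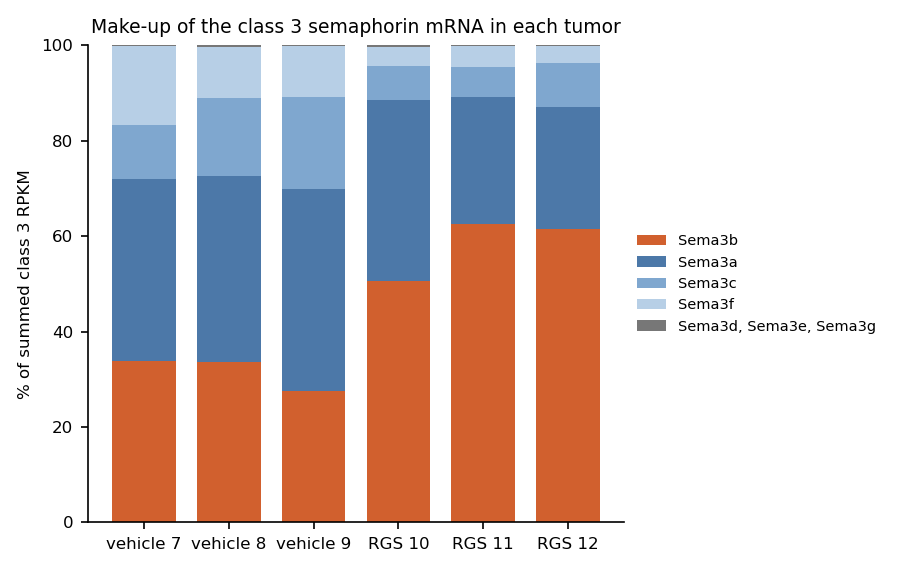
Share of each class 3 semaphorin in the summed class 3 RPKM, as a stacked bar for each of the 6 tumors. The *Sema3b* part at the bottom takes 27.6% to 33.8% of the vehicle bars and 50.7% to 62.5% of the RGS bars, and the *Sema3c* and *Sema3f* parts are thinner in the RGS bars.

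The membrane-bound semaphorins of classes 4 to 7 moved one way where they were called. Of 13 genes, 11 were tested, 5 rose and 0 fell, beside 16.3% higher and 16.5% lower of all tested genes. *Sema7a*, the lipid-anchored semaphorin that signals through plexin C1 and beta1 integrin, was the most abundant semaphorin per length. It stood at 248, 238 and 234 CPM in the vehicle tumors and at 515, 516 and 498 CPM in the RGS tumors. The spread within each group was small beside the 2.12-fold difference (log2 fold change 1.09 ± 0.14 SE, edgeR adjusted p = 1.29e-05), and the call held whichever tumor was left out. *Sema4b*, the second most abundant, had 114, 95.5 and 84.8 CPM with vehicle and 185, 169.5 and 158 CPM with RGS (log2 fold change 0.80 ± 0.16 SE, edgeR adjusted p = 0.000794). *Sema4c*, a plexin B2 ligand, had 26.5, 22.6 and 18.2 CPM with vehicle and 51.5, 62.7 and 52.7 CPM with RGS. Its RGS tumors all lay above its vehicle tumors, a log2 fold change of 1.31 ± 0.20 (SE, edgeR adjusted p = 5.57e-05). *Sema5a*, a membrane semaphorin with thrombospondin repeats, had 222, 144 and 123 CPM with vehicle and 362, 339 and 345 CPM with RGS, a log2 fold change of 1.10 ± 0.19 (SE, edgeR adjusted p = 0.000187). Vehicle 7 was the highest vehicle tumor for *Sema4b*, *Sema4c*, *Sema5a* and *Sema7a*, and still below each RGS tumor. *Sema6a*, a plexin A ligand, was scarce, at 1.57, 0.677 and 0.946 CPM with vehicle and 2.89, 6.63 and 4.41 CPM with RGS. It rose 4.36-fold with the largest error of the 5 (log2 fold change 2.11 ± 0.64 SE, edgeR adjusted p = 0.0169), and lost the call without RGS 11 (0.0867) or vehicle 8 (0.0705). *Sema4g* missed the threshold at an edgeR adjusted p of 0.0526 (log2 fold change 0.67 ± 0.26 SE), and passed it in 8 of 17 other settings, among them DESeq2 (0.0415) and without vehicle 7 (0.0219). The other 5 tested genes without a call, *Sema4a*, *Sema4f*, *Sema6b*, *Sema6c* and *Sema6d*, had log2 fold changes between 0.04 and 1.38.

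**Figure D3:**
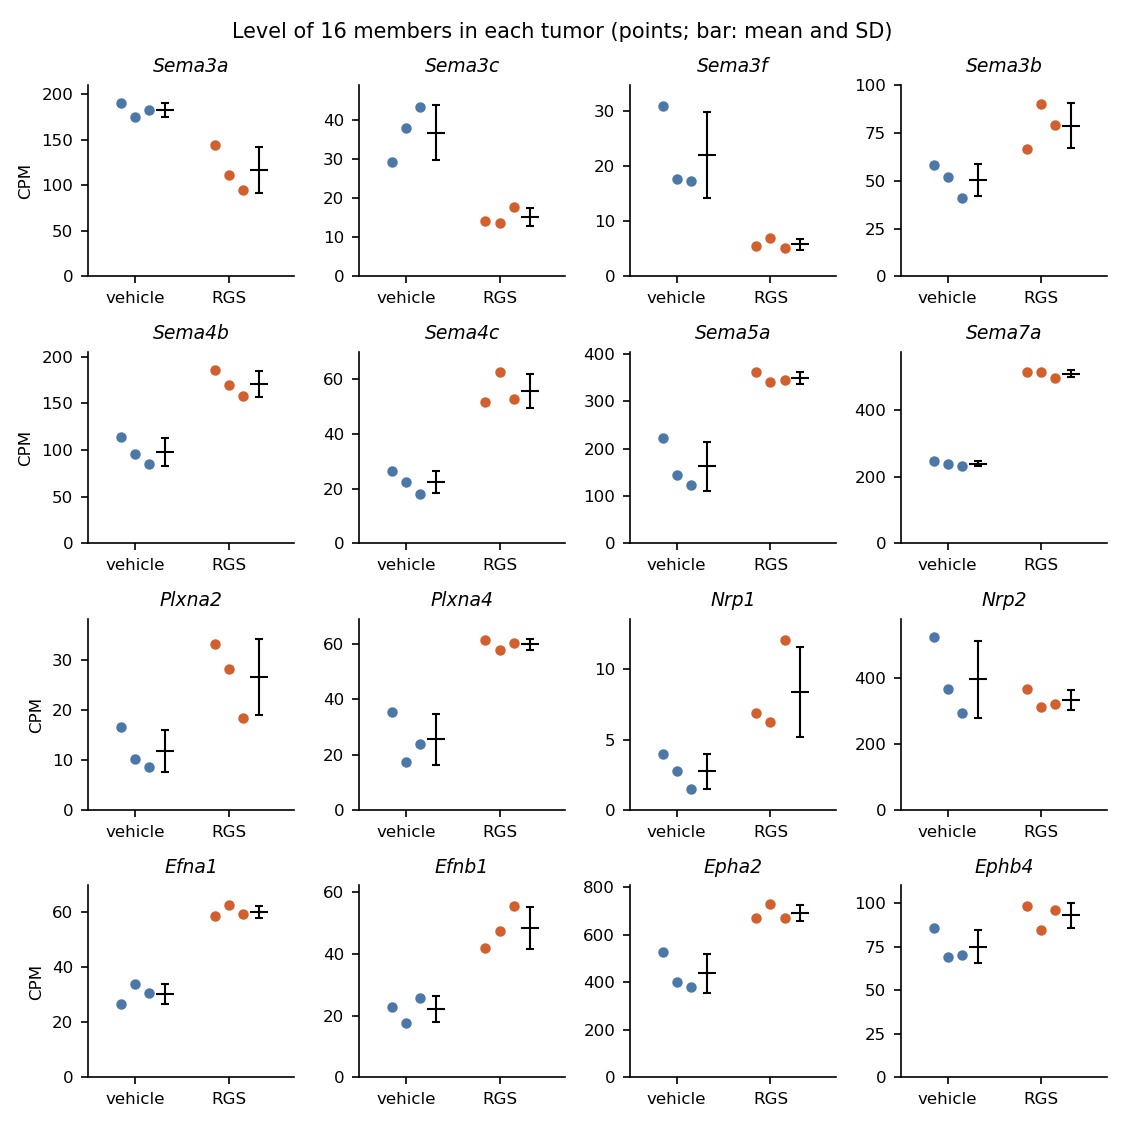
CPM of 16 members in each tumor (points, blue for vehicle and orange for RGS), with the mean and SD of each group as a black bar, on axes that start at 0. The groups are apart for each gene shown except *Nrp2* and *Ephb4*.

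Among the receptors, plexins A2, A4, B1 and B2 rose while plexins A1, A3 and D1 had no call. *Plxnb2*, which binds class 4 semaphorins, was the most abundant plexin per length at 53.8 ± 15.8 RPKM with vehicle and 78.7 ± 7.22 RPKM with RGS. In CPM it was at 549, 386 and 310.5 with vehicle and at 665, 604 and 554 with RGS, so that vehicle 7 all but reached RGS 12. The log2 fold change was 0.55 ± 0.18 (SE, edgeR adjusted p = 0.0280). The difference kept its direction, at 0.38 to 0.54, but lost the call without vehicle 8 (adjusted p = 0.0776), vehicle 9 (0.106), RGS 10 (0.109) or RGS 11 (0.0758), and was 0.40 with library size as the scale (0.116). *Plxna4*, a receptor for class 3 and class 6 semaphorins, had 35.5, 17.5 and 23.7 CPM with vehicle and 61.5, 57.7 and 60.1 CPM with RGS. Its groups were well apart (log2 fold change 1.22 ± 0.22 SE, edgeR adjusted p = 0.000351). *Plxna2*, a related receptor, had 16.6, 10.3 and 8.73 CPM with vehicle and 33.1, 28.1 and 18.4 CPM with RGS, where RGS 12 was close to vehicle 7 (log2 fold change 1.16 ± 0.29 SE, edgeR adjusted p = 0.00425). *Plxnb1* rose from 6.69 ± 1.94 to 12.7 ± 0.725 CPM (SD, n = 3; log2 fold change 0.93 ± 0.32 SE, edgeR adjusted p = 0.0336). It lost that call without vehicle 8 (0.112), vehicle 9 (0.123), RGS 10 (0.0730) or RGS 12 (0.0558), and with library size as the scale (0.0766). *Plxna1*, the second most abundant plexin, had a log2 fold change of -0.07 ± 0.17 (SE), and *Plxnd1*, a plexin of the endothelium, one of 0.18 ± 0.22 (SE).

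*Plxnc1*, the plexin that binds *Sema7a*, was the rarest tested plexin. Its counts were 37, 19 and 8 with vehicle and 0 in each RGS tumor. Against a limit of 3 counts per RGS library it was at least 3.77-fold lower with RGS, and the edgeR adjusted p was 0.0190. Since the vehicle tumors alone brought it past the filter, a call could only be lower. The call was lost without vehicle 7 (0.105), vehicle 8 (0.0969), RGS 10 (0.0732), RGS 11 (0.0650) or RGS 12 (0.0695). Even in the vehicle tumors it reached only 0.0829 ± 0.0427 RPKM (SD, n = 3), beside 72.8 ± 2.27 RPKM for its ligand.

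The neuropilins were unequal in level and in change. *Nrp2* made up 99.1% to 99.4% of the summed neuropilin RPKM with vehicle and 95.7% to 97.8% with RGS. It stood at 526, 369 and 296 CPM with vehicle and at 369, 314 and 322 CPM with RGS. Its groups overlapped, and it had no call (log2 fold change -0.25 ± 0.18 SE, edgeR adjusted p = 0.333). *Nrp1*, the coreceptor of *Sema3a* and of vascular endothelial growth factor, had 4.0, 2.78 and 1.55 CPM with vehicle and 6.91, 6.25 and 12.1 CPM with RGS. It rose 3.03-fold (log2 fold change 1.59 ± 0.46 SE, edgeR adjusted p = 0.0126), with RGS 12 far above the others, and without RGS 12 the edgeR adjusted p was 0.0801. Endothelial markers are given beside it because vessels carry *Nrp1*. Of 14 such markers 7 were tested, 2 rose (*Cdh5*, from 0.555 to 6.20 CPM, and *Egfl7*, from 8.75 to 18.7 CPM), 0 fell and 4 were at 0 in all tumors. *Flt1*, the most abundant of the 14, went from 41.9 to 30.6 CPM on average without a call. Of the scarcer markers without a call, *Tek* had a negative log2 fold change and *Esam*, *Pecam1* and *Vwf* positive ones. The 14 summed to 45.9 to 64.4 CPM with vehicle and 58.0 to 63.4 CPM with RGS, and their part in the *Nrp1* change was not tested.

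Ephrin-A1, ephrin-A4 and ephrin-B1 rose among the 8 tested ephrins, and 0 fell. Of all tested genes 16.3% were higher and 16.5% lower. *Efna1*, the ligand that EphA2 binds best, was the most abundant ephrin per length (16.6 ± 1.96 RPKM with vehicle and 32.8 ± 1.23 RPKM with RGS). It had 26.7, 33.8 and 30.4 CPM in the vehicle tumors and 58.3, 62.5 and 59.1 CPM in the RGS tumors. The groups were far apart, with a log2 fold change of 0.98 ± 0.18 (SE, edgeR adjusted p = 0.000339). *Efna4* had 9.33, 6.09 and 4.04 CPM with vehicle and 16.5, 11.2 and 13.8 CPM with RGS (log2 fold change 1.09 ± 0.35 SE, edgeR adjusted p = 0.0210). Its call was lost without vehicle 8 (0.0582), vehicle 9 (0.0821) or RGS 10 (0.0824). *Efna3*, which lies between these genes on chromosome 3, 32.8 kb from *Efna1* and 10.4 kb from *Efna4*, had no call (log2 fold change 0.49 ± 0.57 SE). *Efnb1*, an X-linked ephrin of the membrane-spanning type, had 22.9, 17.6 and 25.8 CPM with vehicle and 41.9, 47.5 and 55.6 CPM with RGS. Its RGS tumors were all above its vehicle tumors (log2 fold change 1.13 ± 0.21 SE, edgeR adjusted p = 0.000354). *Efnb2*, known from arteries and the most abundant ephrin-B, had 86.3, 76.0 and 64.9 CPM with vehicle and 122, 87.9 and 92.9 CPM with RGS. These groups did not overlap, but RGS 11 lay close to vehicle 7, and the difference missed the threshold (log2 fold change 0.42 ± 0.18 SE, edgeR adjusted p = 0.0784, and 0.0207 without vehicle 7). As a share of the ephrin-B sum, *Efnb2* ranged from 55.2% to 68.1% with vehicle and from 45.0% to 58.2% with RGS, which overlap.

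Of the Eph receptors, 9 were tested, 1 rose and 1 fell, beside 16.3% higher and 16.5% lower of all tested genes. *Epha2*, a receptor often raised in melanoma, made up 99.0% of the mean EphA level per length with vehicle and 99.3% with RGS. It had 529, 402 and 379.9 CPM in the vehicle tumors and 672, 729 and 669 CPM in the RGS tumors. The groups did not overlap, and the 1.58-fold rise (log2 fold change 0.66 ± 0.16 SE, edgeR adjusted p = 0.00353) held whichever tumor was left out. *Epha4*, a receptor of both ephrin types known from neurons, had 2.77, 2.10 and 1.03 CPM with vehicle and 0, 0.377 and 0 CPM with RGS. This was 97, 59 and 24 counts against 0, 5 and 0 counts, a log2 fold change of -4.05 ± 1.38 (SE, edgeR adjusted p = 0.0308). It too passed the filter through the vehicle tumors alone, where it is high. The call was lost without vehicle 7 (0.132), vehicle 8 (0.109), RGS 10 (0.0805) or RGS 12 (0.0666). None of the 4 tested EphB receptors was called. *Ephb4*, the vein receptor for ephrin-B2 and the most abundant of them, had 85.8, 68.9 and 70.1 CPM with vehicle and 98.1, 84.7 and 95.9 CPM with RGS. RGS 11 lay below vehicle 7, and the difference missed the threshold (log2 fold change 0.31 ± 0.16 SE, edgeR adjusted p = 0.156, and 0.0434 without vehicle 7). *Ephb6*, a receptor that lacks kinase activity, had a log2 fold change of 0.56 ± 0.22 (SE, edgeR adjusted p = 0.0606, and 0.00605 without vehicle 7).

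Summed per gene length, the classes 4 to 7 semaphorins went from 117 ± 10.1 RPKM with vehicle to 232 ± 8.94 RPKM with RGS (SD, n = 3). Ephrin-A went from 24.8 ± 2.33 to 46.1 ± 1.69 RPKM and ephrin-B from 17.6 ± 1.67 to 29.4 ± 1.74 RPKM. EphA receptors went from 94.4 ± 17.3 to 149 ± 7.78 RPKM and EphB receptors from 28.3 ± 5.50 to 37.0 ± 1.96 RPKM. In these 5 sums the RGS tumors lay above the vehicle tumors without overlap. For the EphB sum the gap was narrow (34.2 RPKM in vehicle 7 and 35.2 RPKM in RGS 11), and 0 of its 4 tested genes were called. The sums of the plexins (78.3 ± 21.2 and 106.6 ± 9.23 RPKM) and of the neuropilins (33.8 ± 10.05 and 29.1 ± 2.42 RPKM) overlapped between the groups. A single gene made up most of several sums, with *Sema7a* at 62.6% of its sum with vehicle and 66.7% with RGS, and *Plxnb2* at 68.4% and 73.8%. The EphA sum was nearly all *Epha2*, at 99.0% and 99.3%. These sums are descriptions and were not tested.

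**Figure D4:**
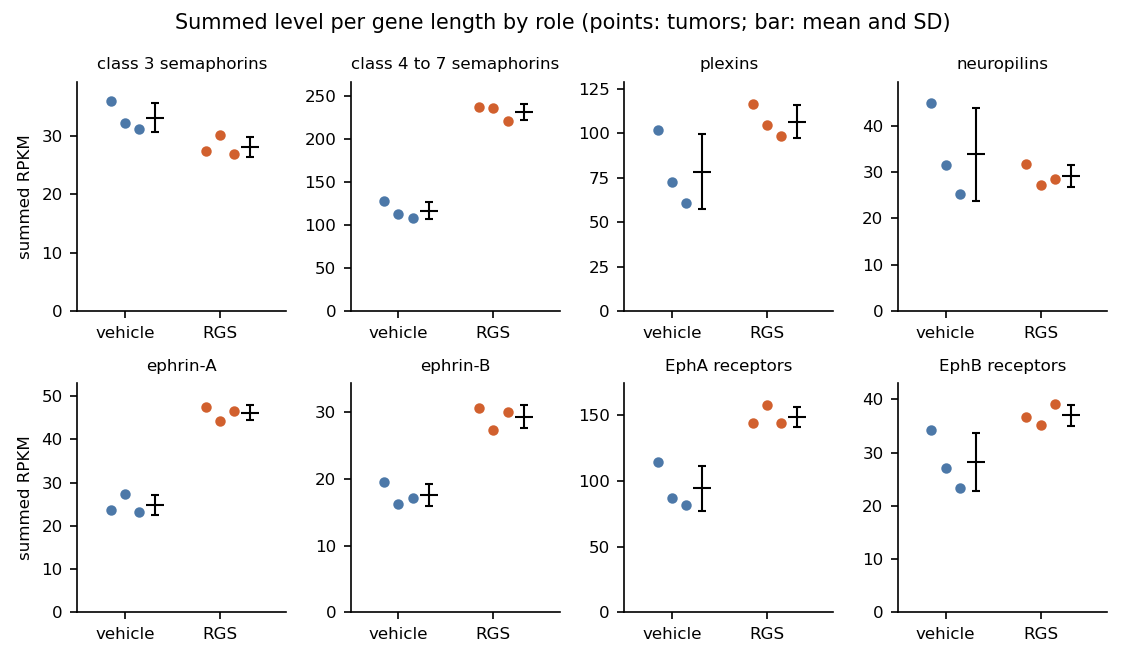
Summed RPKM of the members of each role in each tumor (points, blue for vehicle and orange for RGS), with the mean and SD as a black bar and each axis starting at 0. The plexin and neuropilin panels overlap between the groups, the class 3 panel is lower with RGS, and the other 5 panels are higher with RGS.

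Ligands and their receptors were set side by side as ratios of RPKM within each tumor. *Sema3a* was 33.6 to 83.6 times the level of *Nrp1* in the vehicle tumors and 5.59 to 14.7 times in the RGS tumors, and its ratio to *Plxna4* was 5.46 to 10.2 with vehicle and 1.61 to 2.39 with RGS. Against *Plxna2* the ratio was 14.2 to 26.0 with vehicle and 4.91 to 6.44 with RGS, and against *Plxna1* it was 0.851 to 1.19 and 0.576 to 0.721. In these 4 pairs the ratios were lower with RGS, without overlap. *Sema3a* alone was already lower without overlap, and *Nrp1*, *Plxna4* and *Plxna2* were already higher without overlap. The ratios to these receptors therefore had to separate and are descriptions only. *Plxna1* had no call and its groups overlapped (log2 fold change -0.07), so that ratio adds little to the fall of *Sema3a* (log2 fold change -0.64). Against *Plxna3* the ranges overlapped, at 3.59 to 4.35 with vehicle and 2.47 to 3.8 with RGS. The ratio of *Sema3f* to *Nrp2* was 0.11 to 0.134 with vehicle and 0.034 to 0.0509 with RGS, and that of *Sema3c* to *Nrp2* was 0.0919 to 0.243 and 0.0641 to 0.0914, ranges that nearly met. *Sema7a* against *Itgb1*, the beta1 integrin that serves as its other receptor, was 0.213 to 0.237 with vehicle and 0.349 to 0.408 with RGS, while *Itgb1* itself had no call (edgeR adjusted p = 0.0608). *Efna1* stood at 0.129 to 0.215 of the *Epha2* level with vehicle and 0.219 to 0.226 with RGS, where the other vehicle tumors were close to the RGS tumors and vehicle 7 lay apart. *Efnb2* against *Ephb4* overlapped (0.627 to 0.746 and 0.656 to 0.843), as did *Sema6d* against *Plxna1* (0.481 to 0.540 and 0.426 to 0.633). *Sema3e* was at most 0.0314 of the level of its receptor *Plxnd1* in any tumor, and *Sema4d* at most 0.0840 of that of *Plxnb1*.

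Genes that carry the signal inside the cell were taken from lists of known transducers. Of 39 semaphorin and plexin transducers 32 were tested, 11 rose and 3 fell, with a median log2 fold change of 0.34. Among those that rose were *Dpysl2*, the CRMP2 protein that relays *Sema3a* to microtubules (21.8 to 75.2 CPM, log2 fold change 1.79 ± 0.24 SE), *Limk1*, the kinase that inactivates cofilin (1.14 ± 0.19), *Cfl1*, cofilin itself (0.98 ± 0.16), and *Nrcam*, an adhesion partner of neuropilin 2 (1.13 ± 0.16). The 3 that fell were *Met*, a receptor kinase that partners with plexin B1 (149.7 to 73.2 CPM, log2 fold change -1.03 ± 0.16 SE), and the small GTPases *Rnd1* (-0.56 ± 0.17) and *Rap1b* (-0.51 ± 0.17). The groups overlapped for *Rap1b*, with vehicle 7 at 457.6 CPM and RGS 10 at 457.7 CPM. Of 38 Eph and ephrin transducers 35 were tested, 13 rose and 3 fell, with a median of 0.37. *Ngef*, the ephexin exchange factor of EphA receptors (0.80 ± 0.14), *Tiam1*, a Rac exchange factor (2.26 ± 0.51), *Src* (1.01 ± 0.18), *Pak1* (0.94 ± 0.20) and *Pdzrn3*, a PDZ-domain ubiquitin ligase (1.95 ± 0.17), rose. *Arhgef28*, a guanine nucleotide exchange factor (-2.33 ± 0.30), *Yes1*, a kinase of the Src family (-1.15 ± 0.21), and *Chn1*, a Rac GTPase activator that relays EphA4 (-0.64 ± 0.23), fell. As shares of the tested genes these counts stand beside the 16.3% higher and 16.5% lower of all genes.

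Within the vehicle group the members tended to share an order. Vehicle 7, the deepest library, was the highest vehicle tumor in 31 of the 43 tested members and in 13 of the 15 that rose, and vehicle 9 was the lowest in 28. The order over all tested genes was not counted, so it is not shown to be particular to the members. Ribosomal protein genes made up 5.16%, 7.65% and 9.41% of vehicle 7, 8 and 9, and 2.85% to 3.35% of the RGS libraries. The part of that gradient in the order was not tested. Without vehicle 7 all 15 higher members kept their call and 3 of the 5 lower ones did, *Epha4* and *Plxnc1* being the exceptions. Some nerve-cell genes also rose in these tumors. Of 8 Schwann cell and nerve markers 6 were tested and 4 rose, *Nefl*, *Nefm*, *Tubb3* and *Sox2*, and the 8 summed to 242 to 279 CPM with vehicle and 1016 to 1151 CPM with RGS. Blood vessel mural cell markers split, with *Rgs5* higher and 4 of the 5 tested lower, and the 8 listed summed to 188 to 271 CPM with vehicle and 451 to 511 CPM with RGS. *Rgs5* alone went from 1.30 to 401 CPM on average, while *Acta2* fell from 88.3 to 18.2 CPM and *Cspg4* from 104.5 to 57.4 CPM. Fibroblast markers summed to 205.5 to 265 CPM with vehicle and 151 to 162 CPM with RGS, with 1 of 7 tested higher and 2 lower. Of 8 keratinocyte markers 2 were tested. *Col17a1* was called higher, but it passed the filter through the RGS tumors alone, and its groups overlapped. It had 0, 2 and 0 counts with vehicle and 22, 27 and 1 with RGS. The 8 summed to no more than 1.72 CPM with vehicle and 4.82 CPM with RGS. The part of these other cell types in the changes of the members was not tested.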

How the data were processed

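Bulk RNA from 6 tumors was analysed. Per the labels and the submitters' processing notes, the authors trimmed reads with cutadapt 1.18, checked them with FastQC 0.11.7, aligned them with STAR 2.7.1a to mm10 and deposited raw counts per gene from featureCounts 1.6.4, 1 column per tumor. How strand and reads shared by several genes were handled is not given in the sources used here. Columns were matched to samples by name. The members and lists were chosen with earlier results of these data known.

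From the deposited counts, genes with a median of at least 5 in at least 1 group (15355 of 40166) were fitted in R 4.3.3 with edgeR 4.0.16 (TMM factors between 0.920 and 1.08, quasi-likelihood F test, two-sided, Benjamini-Hochberg over all tested genes, threshold 0.05). Standard errors are absolute log2 fold changes over the square root of F. CPM used the TMM-scaled library, and RPKM also the gene length of the table. Each called member is named, with the value in each tumor where the log2 fold change reached 1 and the mean 1 CPM, and for the 2 members with the highest mean RPKM among the semaphorins, the plexins with neuropilins, the ephrins and the Eph receptors. *Sema3a*, *Sema3b*, *Plxna1*, *Plxnd1*, *Sema4g* and *Ephb6* were described further after their values were seen. The ratio of *Sema3f* to *Sema3b* was not among the pairs set beforehand. The labels name no separate experiments, so p-values measure the spread between these tumors, and each same-group pair differed by more than sampling noise. Alternatives used DESeq2 1.42.0, limma 3.58.1 (voom with quality weights), other scalings, filters, thinning and offsets, and each tumor left out. Of 53 members, 52 had the GENCODE M21 identifier and position. The procedure was tested on simulated data in which few genes changed, in equal numbers up and down. That test does not cover shifts over as many genes as were called here.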

Additional observations from a re-analysis of the deposited data

How the results depend on the processing

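Of the 20 called members, 12 kept direction and call under all 17 alternatives (*Efna1*, *Efnb1*, *Epha2*, *Plxna2*, *Plxna4*, *Sema3a*, *Sema3c*, *Sema3f*, *Sema4b*, *Sema4c*, *Sema5a* and *Sema7a*), and no called member reversed. *Plxnc1* was not tested under filterByExpr. With a log2 fold change of 1 or more in size also required, 9 members were higher and 4 lower, 1168 of all genes were higher and 1450 lower. Library size as the only scale lowered the share of higher calls among all calls from 49.7% to 37.2%. Leaving out 1 tumor gave 11 to 19 members higher and 3 to 5 lower, and 1776 to 2698 of all genes higher and 1717 to 2551 lower, with fewer samples in each fit. DESeq2 called 16 members higher and 5 lower, beside 18.0% higher and 17.2% lower of all tested genes. With limma voom 21 members were higher and 6 lower, beside 22.2% higher and 22.2% lower of all tested genes. No paired analysis was possible because the groups share no replicate number. The depth limits statements on members with few counts. The log2 fold changes of *Plxnc1*, *Epha4*, *Epha5*, *Sema3e*, *Sema4a* and *Sema4f* had standard errors above 1.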

Other observations

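*Epha8*, a receptor of the nervous system that did not pass the filter on low counts, had 28 counts in RGS 11 and 0 in each of the other 5 tumors. *Sox10*, a neural crest factor, was likewise at 1.36 CPM in RGS 11 and at 0 in the other tumors.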
